A study of Zea mays with 4 samples.

Results

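How the polysome-to-total ratio of the rea1 mutant departs from that of wild type was obtained for the 29642 loci listed in each of 4 maize (Zea mays) endosperm libraries. For every locus, the log2 ratio of polysome-bound over total RNA in wild type was subtracted from the same ratio in rea1. All 29642 loci are members, and the 17682 whose mean reached 1 FPKM (a fragment count divided by transcript length and library size) were compared. The 4 groups were rea1 total RNA, wild-type total RNA, rea1 polysome-bound RNA and wild-type polysome-bound RNA, all from endosperm at 15 days after pollination (DAP), with 1 library in each. The labels give the genotypes as rea1 and wild type, while the rea1 allele and the genetic background are not stated there. The design text speaks of triplicates, while each group has 1 column of values, so no difference between the genotypes has a replicate check or a test. The files identify loci only by B73 RefGen_v3 coordinates and pair them with no gene names, so neither the tissue nor the mutated gene could be checked by its markers, and no roles are given to single loci.

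Endosperm is the storage tissue of the maize kernel, and in mid-development much of its messenger RNA encodes storage proteins such as the zeins, several of which are encoded by tandem arrays of near-identical genes. Messenger RNA that is being translated carries several ribosomes and pellets through a dense sucrose cushion, whereas free messenger RNA stays above it. A polysome-to-total ratio compares a transcript's place among pelleted RNA with its place among all RNA. Yeast Rea1, also called midasin, is an ATPase of the AAA family and removes assembly factors from the precursor of the large ribosomal subunit.

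The polysome-to-total ratio was lower in rea1 at most loci as deposited. The median change was -0.37 on the log2(FPKM + 1) scale, the quartiles were -0.77 and -0.01, and 75.5% of the loci were below 0. The ratio was 2-fold or more lower in rea1 at 2745 loci (15.5% of those compared) and 2-fold or more higher at 363 (2.05%). It was 4-fold or more lower at 323 and 4-fold or more higher at 71. FPKM values are shares of a library, and the position of 0 depended on the scaling: median-of-ratios scaling moved the median to 0.015, with 1179 loci (6.67%) 2-fold or more lower and 838 (4.74%) 2-fold or more higher. That scaling sets the median log difference of each library from the mean of the libraries to 0. A median change near 0 is therefore built into it and is no finding. Counted from the median of all loci, the change was 2-fold or more below it at 1213 loci and 2-fold or more above it at 869. In such bulk tissue, fewer cells of a type and less RNA per cell cannot be told apart.

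The loci whose ratio changed carried very different parts of the RNA in the 4 libraries. The 363 loci with a higher ratio in rea1 accounted for 58.4% of all FPKM in wild-type total RNA but 13.6% in rea1 total RNA. On polysomes the same loci held 49.0% in wild type and 33.5% in rea1. Their share was therefore far apart between the genotypes in total RNA and less so in polysome-bound RNA. The 2745 loci with a lower ratio held 6.26% in wild-type total RNA and 28.5% in rea1 total RNA, and 13.2% and 15.4% on polysomes. Loci listed at 0 in some library entered both sets through the pseudocount. Among them, that at 18865424 of chromosome 7 was listed at 0 in both polysome libraries while its wild-type total value was 91299 FPKM. The locus at 120233940 of chromosome 7 was at 0 in the wild-type total library alone. In a comparison added after the values were seen, the 321 higher loci above 0 in all libraries held 49.0% in wild-type total, 11.9% in rea1 total, 49.0% in wild-type polysome and 33.5% in rea1 polysome RNA. The 2645 lower ones held 6.23%, 24.7%, 9.24% and 11.99% in the same order. Both sets were picked on these same values, so the shares describe them and test nothing. The summed FPKM lay between 846544 and 977156 in the 4 libraries, so these shares refer to totals of similar size.

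As deposited, most of the lower ratios went with a higher value in rea1 total RNA and a similar value on polysomes. Of the 2745 loci, 2061 (75.1%) were 2-fold or more higher in rea1 total RNA and within 2-fold between the genotypes in polysome-bound RNA. Another 78 were 2-fold or more higher in both fractions, 79 were within 2-fold in total RNA and 2-fold or more lower on polysomes, and 506 were within 2-fold in each fraction. Over all loci compared, 26.3% were 2-fold or more higher and 1.91% 2-fold or more lower in rea1 total RNA, against 3.96% and 1.34% in polysome-bound RNA. This balance depended on the scaling: counted from the median difference of all loci, 1283 loci were 2-fold or more above and 1113 below in total RNA, and 315 above and 454 below in polysome-bound RNA. Counted in the same way, a choice made after the values were seen, 705 (58.1%) of the 1213 loci whose change lay below its median were above the median in total RNA and within 2-fold of it on polysomes. Of the 363 loci with a higher ratio, 160 (44.1%) were 2-fold or more lower in rea1 total RNA and within 2-fold on polysomes. In 63 of them the total RNA was within 2-fold and the polysome-bound RNA 2-fold or more higher, 22 were 2-fold or more lower in both, and 103 (28.4%) were within 2-fold in each fraction. Counted from the medians, 461 (53.0%) of the 869 loci above the median change were below the median in total RNA and within 2-fold of it on polysomes. Set out by genotype, 1333 of the 2745 had a ratio within 2-fold of 1 in wild type and 2-fold or more below 1 in rea1. In 946 the ratio was within 2-fold of 1 in both genotypes, and in 271 it was 2-fold or more above 1 in wild type and within 2-fold in rea1. Over all loci compared, 4.51% had a ratio 2-fold or more above 1 and 6.97% 2-fold or more below 1 in wild type, against 2.91% and 20.3% in rea1. The excess of low ratios in rea1 is that of the deposited scale: counted from the median ratio of each genotype, 892 loci lay 2-fold or more above and 1068 below in wild type, and 1298 above and 1429 below in rea1.

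The genotypes lay further apart in total than in polysome-bound RNA. The genotype difference, as log2 of rea1 over wild type, had a median of 0.62 and an interquartile range of 0.79 in total RNA, and a median of 0.24 and a range of 0.54 on polysomes. After removal of each median, 13.6% of the loci were 2-fold or more apart in total RNA and 4.35% in polysome-bound RNA. These comparisons share no library, so the values of one can be read within classes of the other. The 176 loci lying 2 or more log2 units above the median difference in total RNA had a median of 2.47 there and of 0.26 on polysomes, both relative to the medians of all loci. The 188 loci at least 2 units below the median had -2.52 in total RNA and -0.81 on polysomes. With the classes set by polysome-bound RNA, the 51 loci at least 2 units above the median had 2.43 there and 1.98 in total RNA, and the 37 at least 2 units below had -2.46 and -1.52. A difference in polysome-bound RNA was thus met by a more nearly equal one in total RNA than the reverse. The wider spread of the differences in total RNA, given above, by itself leads to such an asymmetry, so it is no separate result. Error in the values that set a class moves the outer classes' own medians away from 0, and its part here was not tested.

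**Figure D1:**
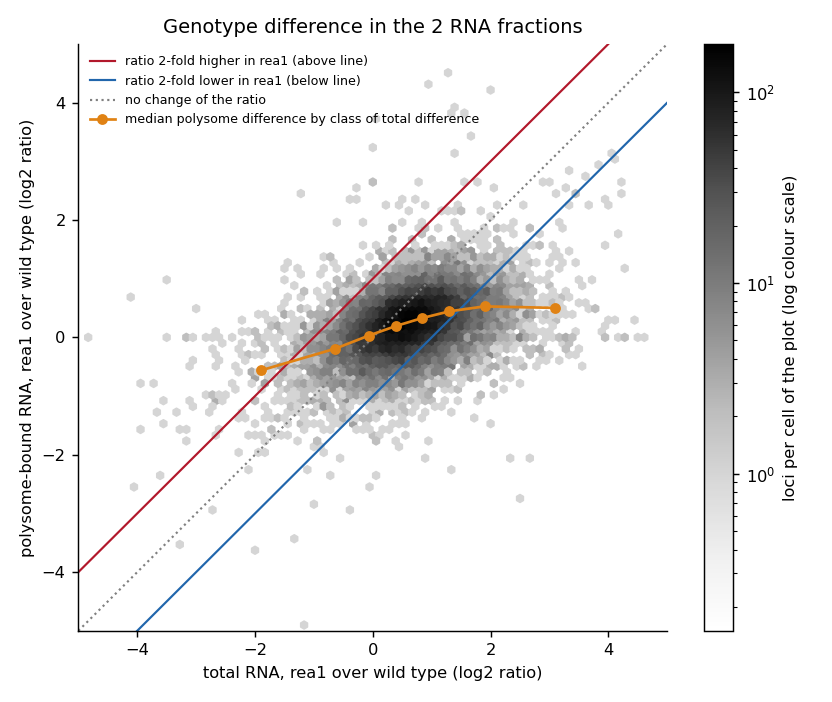
Genotype difference (log2 of rea1 over wild type) in total RNA (x axis) and in polysome-bound RNA (y axis) for the 17682 loci compared, as a density of loci; 15 loci fall outside the range of -5 to 5. Loci above the red line have a polysome-to-total ratio 2-fold or more higher in rea1 (363), loci below the blue line one 2-fold or more lower (2745), and the orange points, medians of the polysome difference by class of the total difference, rise less steeply than the dotted line of equal difference.

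Abundance divided the loci. With a mean of 1 to 10 FPKM the median change was -0.38 (10346 loci), and with 10 to 100 FPKM it was -0.34 (6459 loci), both close to the median of all loci. With 100 to 1000 FPKM the median was -0.70 (807 loci), and 278 of these (34.4%) were 2-fold or more lower, against 15.5% of all loci; under median-of-ratios scaling, added after the values were seen, 120 (14.9%) were, against 6.67% of all loci. Above 1000 FPKM the direction was the opposite: the median was 0.76 over the 68 of 70 loci that were above 0 in every library, with the ratio 2-fold or more higher in 29, or 42.6% against 2.05% of all loci, and 2-fold or more lower in 5. This class differed with length, with the 2 loci listed at 0 included. At 600 to 1200 bp its median was 1.39, and 21 of 28 were higher, against 6.88% of all loci of that length, and 1 lower. At 1200 to 2400 bp it was 0.76 (17 loci, 7 higher and 4 lower). At 2400 to 4800 bp it was -0.23 (16 loci, 1 higher and 1 lower). At 4800 to 10000 bp it was 0.54 (6 loci, 0 higher and 0 lower), and from 10000 bp 0.09 (3 loci, 1 higher and 0 lower). Under median-of-ratios scaling 39 of the 68 (57.4%) were 2-fold or more higher, against 4.74% of all loci, and 1 was lower. With that scaling the medians of the upper classes were -0.25 and 1.21, so they kept their sign, while that of the class of 10 to 100 FPKM became 0.09. The class was set by the mean of the same 4 libraries; set instead by the geometric mean, a choice made after the values were seen, the medians of the upper classes were -0.69 and 0.77. Across loci above 0 in all libraries the log2 genotype ratios in total and polysome-bound RNA had a Pearson r of 0.38 with 1 to 10 FPKM, 0.44 with 10 to 100, 0.59 with 100 to 1000 and 0.85 from 1000 FPKM (68 loci). With the 2 loci listed at 0 in some library included, the r from 1000 FPKM was 0.55 over 70 loci, so it rests on how those are treated. Loci are not independent replicates, and the values of a fraction come from the same pair of libraries for all of them.

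**Figure D2:**
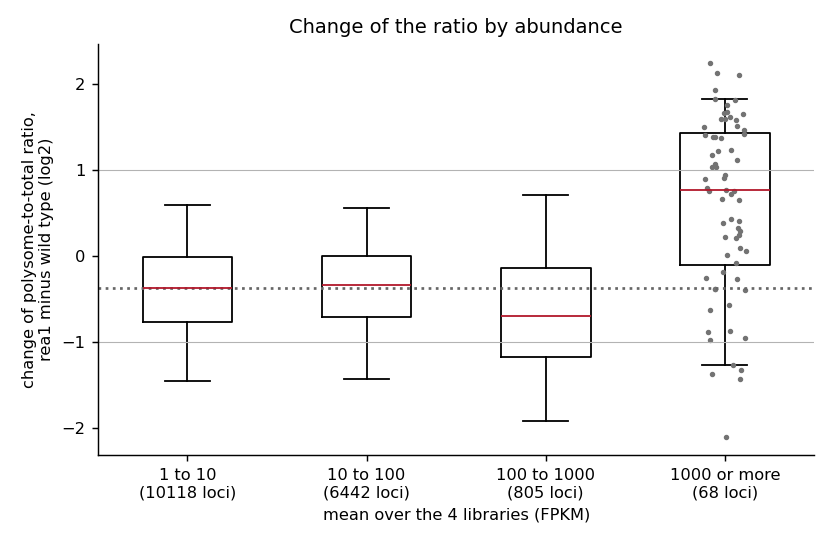
Change of the polysome-to-total ratio (log2, rea1 minus wild type) by class of mean FPKM, for loci above 0 in all 4 libraries; boxes give the quartiles, red lines the medians and whiskers the 5th and 95th percentiles, with single loci drawn in the top class. The dotted line is the median of all loci compared (-0.37), and the class of 1000 FPKM or more lies above it with a median of 0.76, while that of 100 to 1000 FPKM lies below it.

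Many abundant loci with a higher ratio lay near one another in the genome. Of the 29 that were 2-fold or more higher and above 0 in all libraries, 21 were grouped and 8 were not. The loci with the highest means, at 44541825 of chromosome 6 and 183991961 of chromosome 2, were outside the groups, with changes of 1.12 and 1.68. Of the 70 loci averaging 1000 FPKM or more, 26 lie within 500 kb of another and form 6 groups. In the 24 of them above 0 in all libraries the change ran from 0.65 to 2.25 with a median of 1.54, and the ratio was 2-fold or more higher in 21 and 2-fold or more lower in 0, against 2.05% and 15.5% of all loci. No test stands behind these counts. Summed over these 24, wild type was 5.70-fold above rea1 in total RNA and 1.96-fold above it in polysome-bound RNA. The change of the summed FPKM was 1.49 for 13 loci at 5.08 to 5.56 Mb of chromosome 4, 1.64 for 3 loci at 29.95 to 30.09 Mb of chromosome 4, 1.17 for 2 loci at 161.79 to 162.01 Mb of chromosome 1 and 1.48 for 2 loci at 39.09 Mb of chromosome 6. These changes ran from 1.17 to 1.64 (log2), and the wild-type ratios of the summed FPKM from 0.798 for chromosome 6 to 1.22 for the group of 13. The group at 18.76 to 18.88 Mb of chromosome 7 had a change of 2.01, or 1.92 without its locus at 18865424, which was listed at 0 in both polysome libraries. The group at 120.21 to 120.24 Mb of chromosome 7 turned with a single value. Its change was -2.19 as summed, and it was 1.59 for the other locus alone, without that at 120233940, which had 31354 FPKM in rea1 total, 34692 in wild-type polysome and 28979 in rea1 polysome RNA but a value of 0 in the wild-type total library.

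Within the group of 13 on chromosome 4 the change was above 0 at every locus, while the ratios themselves lay far apart. The locus at 5079765 to 5080833 had 175 FPKM in wild-type total, 3332 in wild-type polysome, 18.1 in rea1 total and 1116 in rea1 polysome RNA. The locus at 5535743 to 5536690 had 46410, 44592, 5558 and 20425 FPKM in the same order. The wild-type ratio was thus far above 1 in the former and near 1 in the latter, while their changes were 1.62 and 1.94. Across the 13 loci the change ran from 0.65 to 1.94, and the wild-type log2 ratio from -0.71 to 4.25. The span of the group also holds 15 less abundant loci. Their ratio was 2-fold or more higher in 2 and 2-fold or more lower in 4, against 2.05% and 15.5% of all loci. Their median change was 0.02, against -0.37 for all loci. Copies of a tandem array can share reads, so the value of any single locus in a group is uncertain.

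The highest changes among loci of 1000 FPKM or more were in short loci. The locus at 18755936 to 18756661 of chromosome 7 had 41754 FPKM in wild-type total, 5065 in wild-type polysome, 6812 in rea1 total and 3930 in rea1 polysome RNA, a change of 2.25. Its neighbour at 18877460 to 18878182 had 28408, 28102, 4501 and 19471 FPKM in the same order, a change of 2.13. In both, the total RNA was 6.13-fold and 6.31-fold higher in wild type, and the polysome-bound RNA 1.29-fold and 1.44-fold. Outside the groups, the locus at 21334901 to 21335970 of chromosome 4 had 52408 FPKM in wild-type total, 43299 in wild-type polysome, 5166 in rea1 total and 18398 in rea1 polysome RNA, a change of 2.11. It resembled the grouped loci in direction, with wild type above rea1 in both fractions.

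The 44 abundant loci outside the groups were divided. Their median change was 0.21, against -0.37 for all loci, and 30 of the 44 lay above that median of all loci. The ratio was 2-fold or more higher in 8 and 2-fold or more lower in 5, against 2.05% and 15.5% of all loci. Among the lower ones, the locus at 171118734 to 171119464 of chromosome 8 had 709 FPKM in wild-type total, 1129 in wild-type polysome, 3356 in rea1 total and 1241 in rea1 polysome RNA, a change of -2.10. Polysome-bound RNA was nearly equal in the genotypes there, and total RNA was 4.73-fold higher in rea1. On chromosome 5, the locus at 167791848 to 167793057 had 488, 1150, 2236 and 1945 FPKM in the same order, a change of -1.44. The locus at 181570933 to 181575725 of chromosome 5 had 1053, 1153, 4598 and 1941 FPKM, a change of -1.37. Under median-of-ratios scaling the changes of the chromosome 5 loci were -0.99 and -0.93, within 2-fold.

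**Figure D3:**
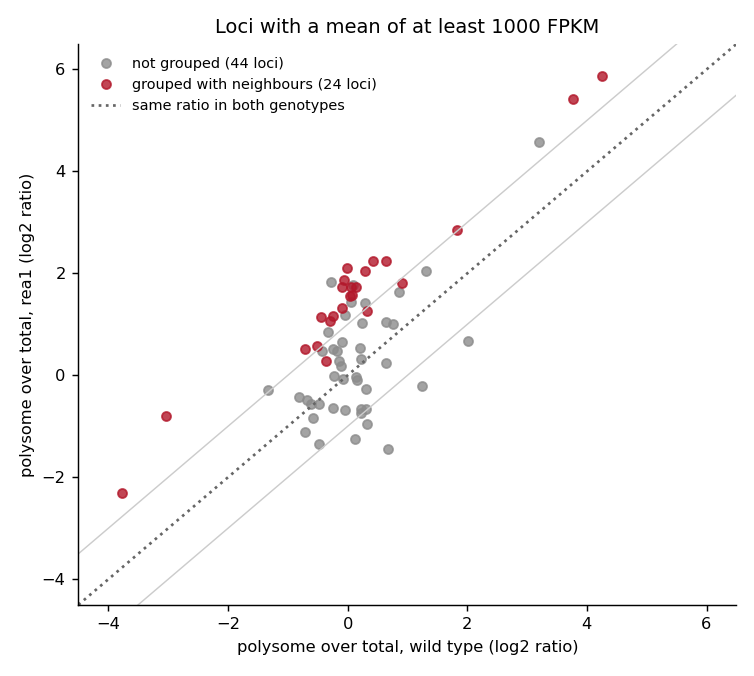
Log2 polysome-to-total ratio in wild type (x axis) and in rea1 (y axis) for the 68 loci averaging 1000 FPKM or more that were above 0 in all 4 libraries; grey lines mark a 2-fold difference between the genotypes. All 24 grouped loci (red) lie above the dotted line of equal ratios, 21 of them beyond 2-fold, and the 44 others (grey) lie on both sides.

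Among loci of 100 to 1000 FPKM the lower ratio was most frequent in short loci. Under 2400 bp, 276 loci were above 0 in all libraries, and 137 of them (49.6%) had a ratio 2-fold or more lower in rea1, against 140 of 529 (26.5%) from 2400 bp and 15.5% of all loci. Over all abundances, the lower share was 33.0% under 600 bp, 24.5% at 600 to 1200 bp and 22.3% at 1200 to 2400 bp. Higher ratios were also more frequent in the short loci, at 12 of the 276 (4.35%), against 10 of the 529 (1.89%) and 2.05% of all loci. The short loci had a median of 143 FPKM in wild-type total RNA, 354 in rea1 total, 159 in wild-type polysome and 199 in rea1 polysome RNA. As deposited, that of rea1 total RNA stands above the others, which lie closer together. This spacing depends on the scaling: median-of-ratios scaling multiplies rea1 total values by 0.69 and wild-type total values by 1.16, which brings these medians nearer to each other. Of the 137, 123 were 2-fold or more higher in rea1 total RNA and within 2-fold on polysomes. Under median-of-ratios scaling 69 of the 276 short loci and 51 of the 529 longer ones (9.64%) were 2-fold or more lower, against 6.67% of all loci. With that scaling 22 of the short and 32 of the longer loci were 2-fold or more higher, against 4.74% of all loci. The limit of 2400 bp was chosen after the values were seen.

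The extreme loci of this class were more than 10-fold apart in total RNA. On chromosome 4, the locus at 156508360 to 156509901 had 43.7 FPKM in wild-type total, 56.2 in wild-type polysome, 538 in rea1 total and 38.6 in rea1 polysome RNA, a change of -4.13. On chromosome 2, the locus at 14631515 to 14632312 had 32.6, 119, 363 and 99.1 FPKM in the same order, a change of -3.71. A locus less than 100 kb from it, at 14732307 to 14733163, had 39.3, 142, 402 and 112 FPKM, a change of -3.67. The values of these neighbours were alike in every library, with rea1 total RNA the highest and wild-type total RNA the lowest. In the other direction, the locus at 18867732 to 18868453 of chromosome 7, inside the span of the group at 18.76 to 18.88 Mb, had 983 FPKM in wild-type total, 58.0 in wild-type polysome, 57.5 in rea1 total and 95.3 in rea1 polysome RNA. Its change of 4.78 was the highest of the class by the rule, with wild-type total RNA alone standing apart. The long locus at 162047479 to 162097052 of chromosome 1, 49574 bp, had 415 FPKM in wild-type total, 17.6 in wild-type polysome, 9.63 in rea1 total and 5.34 in rea1 polysome RNA, a change of 3.74. It lies beside the group at 161.79 to 162.01 Mb. The locus at 276228712 to 276230768 of chromosome 1 had 328, 97.0, 20.5 and 57.2 FPKM in the same order, a change of 3.18. Its ratio was below 1 in wild type and above 1 in rea1.

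The change was more spread out in short loci. Under 600 bp the interquartile range of the change was 1.51 (388 loci), and it narrowed to 0.63 from 10000 bp (2237 loci), while the medians of the 6 length classes stayed between -0.46 and -0.33. Short loci were accordingly more often called in both directions: 33.0% were 2-fold or more lower and 11.3% 2-fold or more higher under 600 bp, against 10.01% and 0.849% from 10000 bp, and 15.5% and 2.05% overall. Under median-of-ratios scaling the same classes had 22.7% lower and 16.8% higher under 600 bp, and 2.91% lower and 2.82% higher from 10000 bp, so the excess of lower over higher calls depended on the scaling. In the class of 100 to 1000 FPKM the median moved as well, from -1.03 at 1200 to 2400 bp (186 loci) to -0.34 from 10000 bp (57 loci). The length is that of the locus with its introns, and fewer fragments fall on a short locus at a given FPKM; the part of counting error in these differences was not tested.

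**Figure D4:**
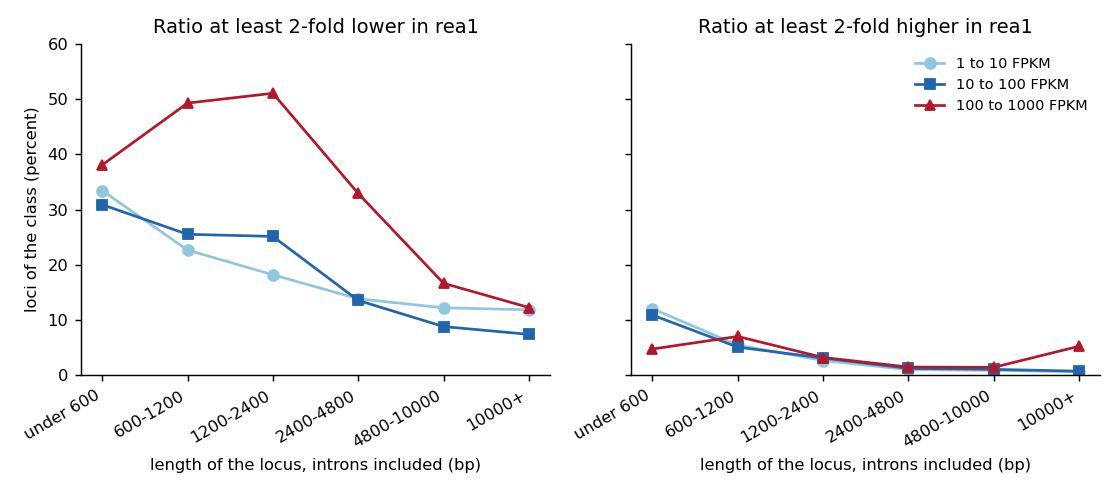
Percentage of loci whose polysome-to-total ratio was 2-fold or more lower (left) or 2-fold or more higher (right) in rea1, by length of the locus (x axis, bp) and class of mean FPKM. Loci of 100 to 1000 FPKM reach 51.1% lower at 1200 to 2400 bp, and all 3 classes have their smallest share of lower loci from 10000 bp. The class of 1000 FPKM or more is not drawn.

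Among loci of 10 to 100 FPKM the largest changes included values that stood alone in a single library. On chromosome 4, the locus at 124589273 to 124591934 had 79.0 FPKM in rea1 total RNA and between 0.110 and 0.180 FPKM in the other 3 libraries, a change of -6.08. A locus less than 100 kb from it, at 124503351 to 124503608, had 1.65 FPKM in wild-type total, 11.6 in wild-type polysome, 124 in rea1 total and 33.9 in rea1 polysome RNA, a change of -4.08. Both were thus highest in rea1 total RNA. Among the higher ones, the locus at 88349118 to 88351781 of chromosome 1 had 23.7 FPKM in wild-type total, 13.5 in wild-type polysome, 1.998 in rea1 total and 19.0 in rea1 polysome RNA, a change of 3.51. It was lowest in rea1 total RNA, with the other libraries close to each other. The locus at 186851761 to 186852893 of chromosome 3 had 14.3, 8.58, 10.9 and 49.5 FPKM in the same order, a change of 2.76, and was highest in rea1 polysome-bound RNA.

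In a small number of loci the genotypes differed in opposite directions in total and polysome-bound RNA. Among the 17682 loci compared, 16 were 2-fold or more higher in rea1 total RNA and 2-fold or more lower in rea1 polysome-bound RNA. The reverse held for 6. Of these, 10 and 3 were above 0 in all libraries and shared their coordinates with no other entry. The balance depended on the scaling: counted from the median difference of each fraction, a choice made after the values were seen, 13 loci went the former way and 7 the latter. The locus at 218853868 to 218854053 of chromosome 3, 186 bp long, had 32.9 FPKM in wild-type total, 139 in wild-type polysome, 184 in rea1 total and 20.3 in rea1 polysome RNA, a change of -5.16. The locus at 204761035 to 204762289 of chromosome 3 had 1.47, 8.34, 6.97 and 2.58 FPKM in the same order, a change of -3.07. In each, the highest values were those of wild-type polysome-bound and rea1 total RNA. In the other direction, the locus at 93841905 to 93845764 of chromosome 3 had 13.3, 6.59, 5.17 and 41.8 FPKM, a change of 3.71. The locus at 173587297 to 173587800 of chromosome 4 had 12.6, 3.85, 3.796 and 10.4 FPKM, a change of 2.73.

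**Figure D5:**
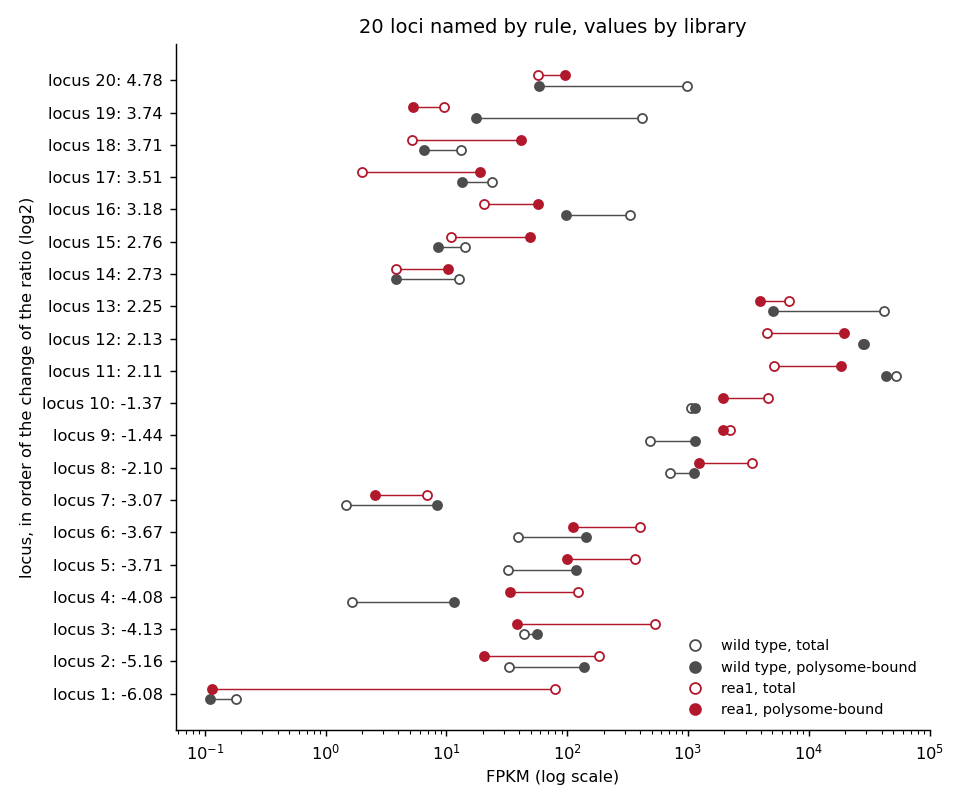
FPKM (log axis) in each of the 4 libraries for the 20 loci named by rule, ordered by the change of the ratio, which is printed beside each; open circles are total and filled circles polysome-bound RNA, wild type in grey and rea1 in red. In the 10 loci with a negative change the open red circle lies to the right of the open grey one (higher total RNA in rea1), and in the 10 with a positive change it lies to its left.

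Beyond the groups, the change differed little with position. The median ran from -0.41 on chromosome 5 to -0.33 on chromosome 10 over the 10 chromosomes. Between neighbouring loci the Pearson r of the change was 0.04 over 16595 pairs and 0.09 over the 4894 pairs less than 20 kb apart. After a locus with a ratio 2-fold or more higher, the next locus within 20 kb was also higher in 18 of 94 pairs (19.1%), against 2.13% of all such pairs. Inside the spans of the 6 groups this was 14 of 16, and outside them 4 of 78 (5.13%). Within these spans 25 of the 41 compared loci above 0 in all libraries had a higher ratio, so the 14 of 16 is to be read beside that share. After a locus with a lower ratio, the next within 20 kb was also lower in 17.9% of 742 pairs, against 15.4% of all such pairs. Entries that share their coordinates gave a rough view of how far 2 values for a place can lie apart. In 327 pairs of such entries the changes differed by a median of 0.51, and in 64 pairs (19.6%) by 2-fold or more. What distinguishes the entries of a pair is not given in the files, so this gap is no measure of replicate error.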

How the data were processed

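The authors deposited a table of FPKM by locus for each library (the unit is named per the file headers). Bowtie 0.12.2 and the build B73 RefGen_v3 are named per the submitters' processing notes. Per the labels' protocols, ribosomes were pelleted through a sucrose cushion to obtain polysome-bound RNA. The annotation, the program behind the FPKM values and any pooling of replicates are not stated there. Read depth is unknown, so no interval is given. The gene table at hand is of another build, so no names were joined. Rows were matched by order and locus; starts were read as counted from 0 and are printed counted from 1.

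The change was the polysome-to-total ratio of rea1 minus that of wild type, on log2(FPKM + 1), which understates differences of low loci, for loci whose mean reached 1 FPKM. With 1 library per group nothing was tested, and loci were counted at 2-fold or more. Loci listed at 0 in some library entered the counts and medians through the pseudocount (42 of the 363 higher and 100 of the 2745 lower), unless stated; no fold is printed for one singly. Single loci were named by rule among loci above 0 in all libraries with coordinates of their own: the 3 highest and 3 lowest changes with a mean of 10 to 100, 100 to 1000, and 1000 FPKM or more, and the 2 largest each way among loci with opposite genotype differences. Other loci were chosen after their values were seen, and the members, classes and rules were chosen with earlier results of these data known. Alternatives were other pseudocounts, filters and scalings. Python 3.11.15 with numpy 2.4.6, pandas 2.3.3 and matplotlib 3.10.9 was used.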

Additional observations from a re-analysis of the deposited data

Results flagged for a closer look

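At 7 of the named loci the polysome-to-total ratio lay at least 2-fold above 1 in one genotype and at least 2-fold below 1 in the other. These differences in direction were not tested, as every group has 1 library. The ratio was above 1 in wild type and below 1 in rea1 at 5 loci: chromosome 3 at 218853868 (log2 ratios 2.05 and -3.12, change -5.16), chromosome 4 at 124503351 (2.25 and -1.83, change -4.08), chromosome 2 at 14631515 (1.84 and -1.86, change -3.71), chromosome 2 at 14732307 (1.83 and -1.84, change -3.67) and chromosome 3 at 204761035 (1.92 and -1.15, change -3.07). It was below 1 in wild type and above 1 in rea1 at chromosome 1, 276228712 (-1.75 and 1.44, change 3.18), and at chromosome 4, 173587297 (-1.49 and 1.25, change 2.73). Among the 17682 loci compared, 70 went the former way and 10 the latter. This balance is that of the deposited scale, on which the median log2 ratio of all loci was -0.06 in wild type and -0.47 in rea1.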

How the results depend on the processing

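The median change and the balance of counts depended on the scaling. Median-of-ratios and trimmed-mean scaling centre the libraries on one another, so a median near 0 is built into both. The median of -0.37 became 0.015 with median-of-ratios and with trimmed-mean scaling, each with 838 loci at least 2-fold higher and 1179 lower, and 0.096 after equal sums without the 50 most abundant loci, with 1052 higher and 987 lower. These scalings add 0.45 to 0.54 to the change of every locus before the pseudocount. With a pseudocount of 0.1 the median was -0.41 with 627 loci higher, and with one of 5 it was -0.25 with 159 higher and 1209 lower. Without a filter the median was -0.22. With a mean of at least 10 FPKM it was -0.36, with 165 higher and 1167 lower among fewer loci. Loci above 0 in all libraries, and loci with coordinates of their own, gave counts within 1.5 times those reported. Of 178 values for the 20 named loci under these alternatives 0 changed sign and 6 came within 2-fold. A filter on loci leaves the value of a single locus as it was, and the named loci were picked for large changes. The lack of sign changes was thus largely fixed by that choice and is no support for these loci. Of 81 values for sums of abundant loci 1 changed sign, chromosome 7 at 120.21 to 120.24 Mb, at 1.59 without its locus listed at 0. No paired analysis was possible because each group has 1 library, and none could be left out.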

Other observations

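The organelle genomes fell almost wholly under the limit of 1 FPKM. The 51 mitochondrial loci, of which 1 was compared, summed to 19.0 FPKM in wild-type total, 5.01 in wild-type polysome, 30.8 in rea1 total and 12.4 in rea1 polysome RNA, so that the change of the sums was 0.61 (log2). The 22 plastid loci, of which 0 were compared, summed to 0.1502, 0.0791, 1.63 and 1.96 FPKM in the same order, a change of 1.19. Plastid sums were higher in the rea1 libraries of both fractions, at levels where few fragments can be expected.

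The lowest values give a hint of relative depth within a genotype. Among loci under 0.3 FPKM in both fractions, total over polysome-bound values were most often at 1.39 in rea1 (2261 loci) and 1.21 in wild type (2514 loci), but only 23.2% and 22.6% of the loci lay within 0.1 (log2) of those steps.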
